A study of Mus musculus with 2 samples.

Results

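Src, Fyn and Yes1 are the Src family tyrosine kinases that are made most widely outside blood cells, and they were examined here as 3 genes of the 21449 matched in both RNA-seq libraries. Their members were all exon trios whose middle exon lay inside the mm9 span of the gene on its strand. An exon trio is a middle exon with the exon before and the exon after it. This gave 53 of 228333 trios, 16 in Src, 17 in Fyn and 20 in Yes1, covering 40 distinct exons. The cells were N2A, a mouse neuroblastoma line, and were harvested 3 days after transfection with an shRNA plasmid. The control library came from cells given shControl, and the knockdown library from cells given shptbp1, a single knockdown of Ptbp1. No other allele or agent was given in the labels, and each condition had 1 library, so that control cells and knockdown cells below stand for 1 library each. No difference below therefore has a replicate check, and all intervals and Fisher's exact tests cover the counting error between these libraries and not the conditions.

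Src family kinases carry an SH3 and an SH2 domain before the kinase domain, and they are held inactive by contacts of these domains with the linker and with a phosphorylated tail. Neurons splice a short exon, N1, into Src mRNA, which adds residues to a loop of the SH3 domain. Fyn has a pair of alternative exons, 7A and 7B, that encode the end of the SH2-kinase linker and the start of the kinase domain, and that distinguish the brain form FynB from the lymphoid form FynT. PTBP1 is a splicing regulator that binds pyrimidine-rich RNA and is known to repress the N1 exon in cells that are not neurons.

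The knockdown check was Ptbp1 itself. Its deposited read depth per base was 2710 in control cells and 832 in knockdown cells, a log2 ratio of FPKM, a length-normalized expression value, of -1.61 (deposited bounds -1.68 to -1.54). Ptbp2, a homolog of Ptbp1, moved from 685 to 1200 reads per base, a log2 ratio of 0.93 (0.78 to 1.08). The junctions of the trio database held 74382387 reads in control cells and 58295142 in knockdown cells, a ratio of 0.784. The 5 neuronal markers examined (Tubb3, Map2, Gap43, Hand2 and Stmn2) had between 231 and 4146 reads per base in the libraries. Their log2 ratios were -0.73 for Tubb3, -0.65 for Stmn2, -0.22 for Map2, -0.07 for Hand2 and 0.53 for Gap43, and the deposited bounds excluded 0 for each but Map2 (-0.43 to 0.01). The 3 fibroblast markers (Col1a1, Col3a1 and Dcn) had between 0.415 and 2.79, and 2 of them were higher after knockdown, Col1a1 by a log2 ratio of 1.15 (-0.34 to 3.20) and Dcn by 1.78 (-0.30 to 6.97), with bounds that include 0. The part of either list in the results below was not tested. Of the blood markers, Ptprc was listed at 0 in control cells and at 0.0357 reads per base in knockdown cells, and Hbb-b1 was not matched.

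The sequences around the neural exon of Src are printed because the upstream intron holds the pyrimidine-rich stretch of the kind that PTBP1 binds. The exon lies at chr2:157284579-157284596 on the plus strand of mm9. It is 18 nt long, a multiple of 3, and is coding. In the upstream intron (chr2:157284479-157284578), and in the downstream intron (chr2:157284597-157284746), capitals mark the pyrimidine motifs CTCTCT and also TCTT, together with TGCATG, the element bound by Rbfox proteins. The exon itself is in capitals throughout.
Src upstream intron: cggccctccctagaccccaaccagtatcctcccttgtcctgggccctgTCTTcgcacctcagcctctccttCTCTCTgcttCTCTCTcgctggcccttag
Src neural exon: GAGGAAGGTGGATGTCAG
Src downstream intron: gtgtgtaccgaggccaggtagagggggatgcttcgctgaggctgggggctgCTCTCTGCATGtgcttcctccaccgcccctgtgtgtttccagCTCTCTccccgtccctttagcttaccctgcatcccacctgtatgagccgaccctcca

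Only the strand of the gene, read in the sense of its RNA, was searched, for the same 3 motifs in every window. CTCTCT occurred 2 times before the neural exon, with first bases at -29 and -19 from the exon, and TCTT occurred 1 time, at -52. None of these matches overlapped another, and TGCATG was not found there. Of 180300 cassette and constitutive exons in the database, 10.5% had CTCTCT in the 100 nt upstream and 2.45% had as many matches as the Src exon. TCTT was found in 63.7% of these windows. Pyrimidines made up 75.0% of the Src window, a share reached by 0.994% of the windows. TGCATG began 57 nt into the downstream intron, and 5.99% of the 150-nt downstream windows held it. CTCTCT began at 52, where its last base is the first of TGCATG, and at 94, and 8.58% of the downstream windows held it. These are matches of letters and not mapped binding sites.

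Of the 40 exons of the 3 genes, 33 had the 20 or more reads on the trio in each library that were required for a call. PSI is the percent inclusion of an exon against the direct joining of its neighbors in the same trio, as the program SpliceTrap estimated it from paired reads. This estimate can differ from inclusion by junction reads alone. It rose by 5 points or more at 0 of these 33 exons and fell at 2. Over all exons of every class that met the minimum, 2.72% rose and 2.68% fell. The 2 that fell were exon 7B of Fyn and the long first exon of Yes1. At 30 of the 33, PSI was at least 95 in both libraries, and there it moved by between -2.9 and 0.7 points. The median change of the 33 was 0.0 points.

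**Figure D1:**
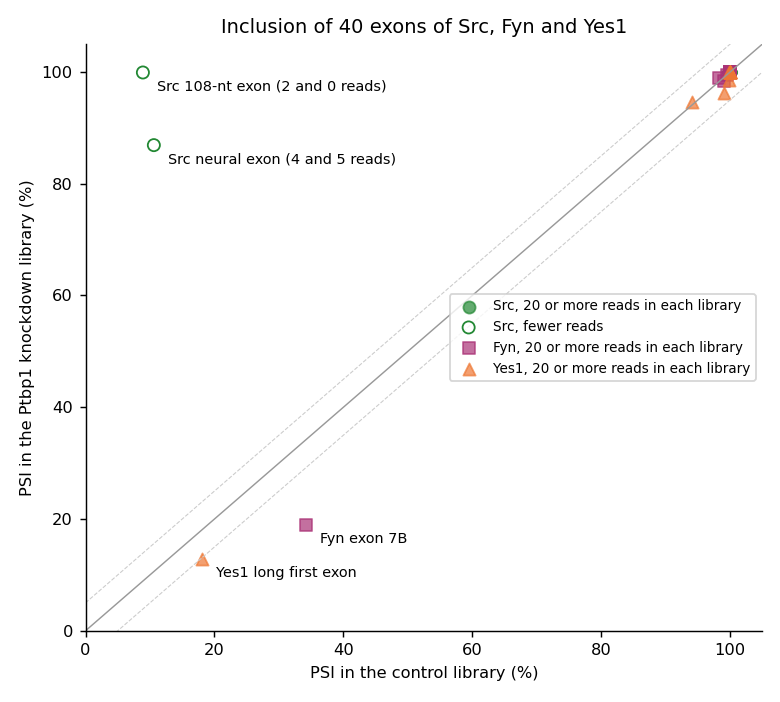
PSI of each of the 40 exons in the control library (x axis, percent) and the knockdown library (y axis, percent), using the trio with the most reads. Filled symbols have 20 or more trio reads in each library, open symbols fewer, and dashed lines lie 5 points from the diagonal. Most exons sit at the upper right, Fyn exon 7B and the Yes1 long first exon lie below the diagonal, and the open Src symbols far above it rest on 2 and 0 reads (108-nt exon) and on 4 and 5 reads (neural exon).

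The neural exon of Src had the largest difference in PSI of any exon of the 3 genes with reads in both libraries, at too few reads for a call. SpliceTrap estimated a PSI of 10.6 in control cells and 86.9 in knockdown cells. The whole trio held 4 reads in control cells and 5 in knockdown cells. These estimates rest on less than the 20 reads required for a call, and neither was counted among the exons that rose.

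The junction reads of the neural exon were first taken from its own trio. In the control library, 0 reads joined the exon to the exon before it, 0 joined it to the exon after it, and 2 skipped it. In the knockdown library, 2 and 1 reads joined it to its neighbors and 1 skipped it. Inclusion from the mean of both junctions was 0% in control cells (95% Wilson interval 0 to 65.8) and 60% in knockdown cells (15.3 to 92.5). The difference was 60 points (95% Newcombe interval -19.5 to 92.5), and the two-sided Fisher's exact test gave p = 0.400, so it was not larger than the counting error.

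Trios centered on the flanking exons counted the same junctions with other mates. The largest count of each junction over all of these trios was 1, 1 and 3 reads in control cells for the upstream, downstream and skipping junctions. In the knockdown library it was 2, 2 and 2. Inclusion by this count was 25.0% (4.56 to 69.9) and 50% (15.0 to 85.0), a difference of 25.0 points (-32.0 to 65.5, Fisher's exact p = 1.00). Reads spliced to the neural exon were thus present in both libraries, and a difference in its share was not detectable at this depth. Reads lying on the exon itself numbered 1 in control cells and 4 in knockdown cells.

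The other cassette exon of Src, of 108 nt at chr2:157250564-157250671, could not be measured. It had 2 reads on the control trio, both skipping it, and 0 on the knockdown trio. Its PSI of 99.9 after knockdown is thus a value that SpliceTrap gave without reads. The 12 constitutive exons of Src had a PSI of 99.9 in both libraries, and 7 of them met the read minimum.

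Junction reads of Src were also summed on each side of the neural exon, a split chosen after the data were seen. The 4 junctions between exons 1 and 5, which lie 5′ of the neural exon, held 12 reads in control cells and 9 in knockdown cells, a ratio of 0.750. The 8 junctions 3′ of it, from exon 7 to exon 15, held 80 and 122 reads, a ratio of 1.52. The ratio over all junctions was 0.784. The share of the 5′ junctions among both was 13% (7.62 to 21.4) in control cells and 6.87% (3.66 to 12.5) in knockdown cells. This difference of -6.17 points (-15.2 to 1.67, Fisher's exact p = 0.162) did not exceed the counting error. A fragment can be counted on several of these junctions, while the interval and the test treat each junction read as separate.

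By exon, the larger differences lay toward the 3′ end. Exon 11, of 180 nt, had 17.2 reads per 100 nt in control cells and 35.0 in knockdown cells. Exon 12, of 77 nt, had 15.6 and 36.4. Exon 5, directly before the neural exon, held 8 and 4 reads on its 100 nt. Exon 3 had 6.21 in both. The depth of constitutive exons was higher toward the 3′ end in each library, with exon 14 at 35.6 and 42.4 reads per 100 nt.

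**Figure D2:**
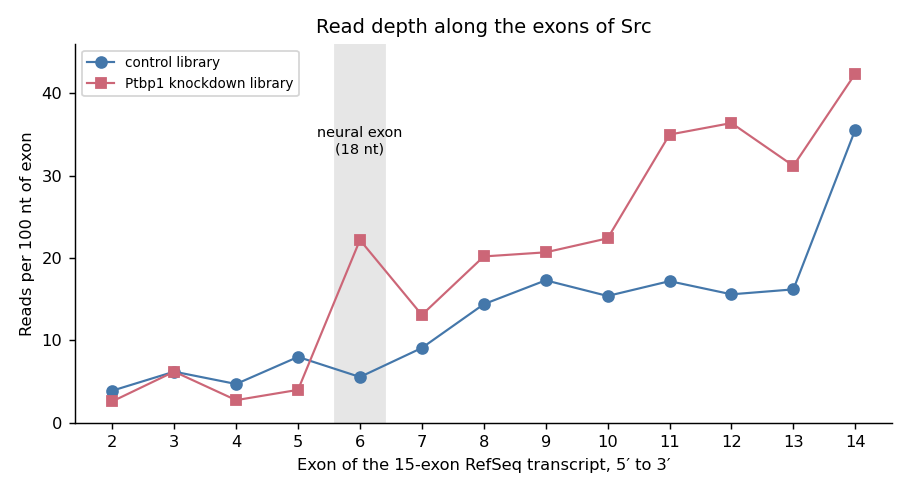
Reads per 100 nt of each exon of Src (y axis) against its number in the 15-exon RefSeq transcript (x axis) in the control and knockdown libraries, not scaled to library size. The neural exon, shaded, stands on 1 and 4 reads, exons 2 to 5 lie at 8 reads per 100 nt or less in both libraries, and from exon 7 to exon 14 the knockdown library lies above the control library.

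Isoform depth estimated by Cufflinks, in reads per base, differed in the same direction as the exon estimate for Src. The isoform without the neural exon, NM_001025395, was at 6.17 in control cells and 2.17 in knockdown cells. The isoform with it, NM_009271, was listed at 0 in control cells and was at 3.00 in knockdown cells. The share of isoforms with the exon among these RefSeq isoforms was thus 0% and 58.1%. In the control library, Cufflinks also assembled a 15-exon transcript with the exon at 1.83 reads per base. With this transcript added, the shares were 22.9% and 58.1%, a difference of 35.2 points. In knockdown cells, 2 further assembled transcripts, at 4.49 and 1.68 reads per base, begin in the intron and run through to the end of the neural exon without splicing into it. Counting them as holding the exon gave 22.9% and 80.9%. These estimates come from the same libraries as the junction counts and have no read count of their own.

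The 5 other exons of at most 30 nt whose PSI in both libraries was closest to that of the Src neural exon were found among 4307 short exons with 20 or more trio reads in each library. They were chosen for this likeness, over 2 libraries, so their values are a description. The Src values of 10.6 and 86.9 that set the distance rest on 4 and 5 trio reads. Before the SpliceTrap correction they were 0.1 and 63.4, so the distances are uncertain too. A 23-nt exon of Pfkfb3, an enzyme that sets the level of a glycolytic activator, went from 10.8 to 91.7 and was nearest, at a distance of 4.80 PSI points. Its junctions held 0 and 3 inclusion reads and 2 skipping reads in control cells, and 9 and 22 against 1 in knockdown cells. An 18-nt exon of Pdlim5, a PDZ and LIM domain protein, went from 2.9 to 91.4, with 1 and 0 inclusion reads against 2 in control cells and 64 and 0 against 3 in knockdown cells. A 21-nt exon of Dctn1, a subunit of the dynein activator dynactin, went from 5.7 to 99.9. Its junctions held 1 and 3 inclusion reads against 2 skipping reads in control cells, and 60 and 62 against 0 in knockdown cells. For these 3 exons the control PSI thus stood on at most 6 junction reads. A 27-nt exon of Fbxo25, an F-box protein, went from 23.7 to 81.8 with 4097 and 4591 trio reads. Its junctions held 59 and 24 inclusion reads against 192 skipping reads in control cells, and 198 and 71 against 46 in knockdown cells. The remaining event, a 2-nt donor shift in Dtnbp1, rested on 1 and 5 junction reads.

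Fyn was expressed strongly enough for all of its 13 exons to be measured, with 305 to 4501 trio reads in control cells. Its exons 7A and 7B lie between the same neighbors, and their sequences and the introns before them are printed because the reads divide between them. Exon 7A lies at chr10:39249243-39249407 and exon 7B at chr10:39249725-39249880, both on the plus strand and both coding. They are 165 and 156 nt long, each a multiple of 3. Capitals mark TCTT and TGCATG in the 100 nt of intron before each exon, chr10:39249143-39249242 and chr10:39249625-39249724.
Fyn intron before 7A: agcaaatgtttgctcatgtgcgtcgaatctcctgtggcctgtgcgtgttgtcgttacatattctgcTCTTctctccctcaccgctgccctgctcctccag
Fyn exon 7A: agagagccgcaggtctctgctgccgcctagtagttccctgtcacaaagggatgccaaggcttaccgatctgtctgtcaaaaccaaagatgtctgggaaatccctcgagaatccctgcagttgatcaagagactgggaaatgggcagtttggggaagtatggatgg
Fyn intron before 7B: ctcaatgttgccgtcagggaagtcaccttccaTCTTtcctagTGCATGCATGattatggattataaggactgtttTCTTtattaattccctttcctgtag
Fyn exon 7B: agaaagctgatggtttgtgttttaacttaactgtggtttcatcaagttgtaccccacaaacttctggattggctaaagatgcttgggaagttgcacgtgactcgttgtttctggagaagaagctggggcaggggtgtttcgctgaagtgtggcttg

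Neither of these windows held CTCTCT, and TCTT occurred 1 time before exon 7A and 2 times before exon 7B. Pyrimidines made up 67.0% and 61.0% of the windows, below the 75.0% of Src. TGCATG occurred 2 times, overlapping, before exon 7B, with first bases at -58 and -54, and 3.25% of all upstream windows held it. It was not found before exon 7A or in the 150 nt after either exon. After exon 7A, CTCTCT began at 20 and TCTT, overlapping it, at 23, and TCTT was found in 60.2% of all downstream windows.

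Exon 7B had the largest fall in SpliceTrap PSI of the exons of the 3 genes with enough reads. Its PSI was 34.2 in control cells and 19.0 in knockdown cells, a difference of -15.2 points on 731 and 569 trio reads. Among all cassette exons that met the minimum, 14.6% fell by 5 points or more and 16.1% rose. Exon 7B was 1 of the 3 cassette exons of Fyn, and the other two, exon 7A and an exon of 70 nt near the 5′ end, moved by 0.0 and 0.7 points.

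The skipping junction of the exon 7B trio was not informative. In this trio the upstream and downstream junctions of exon 7B held 71 and 41 reads in control cells and 30 and 15 in knockdown cells. Skipping of both exons 7 had 2 reads in each library. Inclusion by these reads was 96.6% and 91.8%, a difference of -4.71 points (-22.1 to 5.45, Fisher's exact p = 0.580). The lower SpliceTrap PSI of 34.2 and 19.0 therefore did not come from reads on the skipping junction. Since nearly every transcript that lacks exon 7B holds exon 7A, the reads of exon 7B were set against those of exon 7A on each junction in common.

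On this measure the use of exon 7B was lower in knockdown cells at both of its junctions. At the upstream junction the control library had 71 reads for 7B and 358 for 7A, and the knockdown library had 30 and 342. The share of exon 7B was 16.6% (13.3 to 20.4) and 8.06% (5.71 to 11.3), a difference of -8.49 points (-13.0 to -3.94, Fisher's exact p = 3.88e-04). At the downstream junction the reads were 41 against 218 and 15 against 228, giving 15.8% (11.9 to 20.8) and 6.17% (3.78 to 9.93), a difference of -9.66 points (-15.1 to -4.21, p = 6.01e-04 by Fisher's exact test).

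Trios centered on the flanking constitutive exons held more reads of exon 7B at these junctions. At the upstream junction they had 118 reads for 7B and 362 for 7A in control cells, and 65 and 345 in knockdown cells. The shares were 24.6% and 15.9%, a difference of -8.73 points (-13.9 to -3.43, Fisher's exact p = 0.00153). At the downstream junction the counts were 49 against 199 and 17 against 211, with shares of 19.8% and 7.46%, a difference of -12.3 points (-18.4 to -6.19, Fisher's exact p = 1.01e-04). The level of the share thus depended on the trio, and the difference was larger than the counting error on each of the 4 counts. These counts share fragments, and they were set up after the data were seen.

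**Figure D3:**
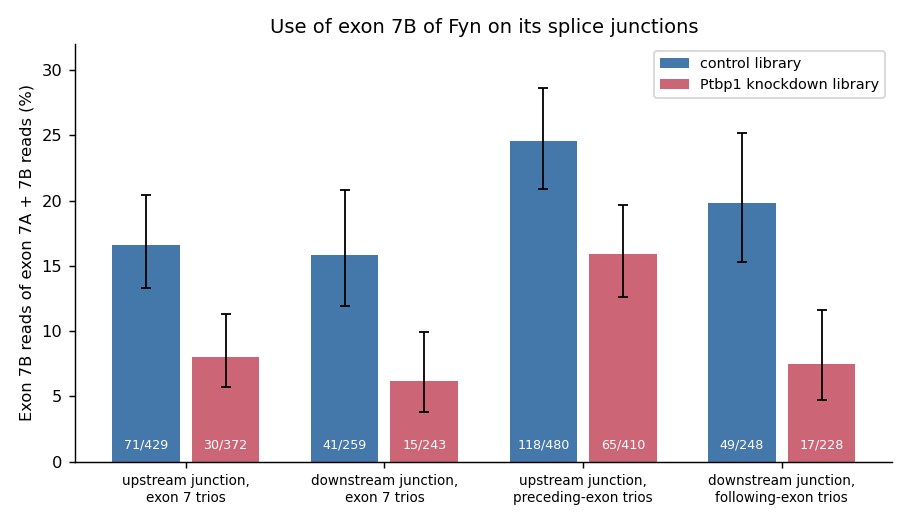
Share of exon 7B among reads of exons 7A and 7B (y axis, percent) on the shared upstream and downstream junctions, counted in trios of exon 7 itself and of the flanking exons, in the control and knockdown libraries. Error bars are 95% Wilson intervals, which cover counting error only, and the numbers in the bars are exon 7B reads over the sum. The knockdown bar is lower on each of the 4 counts, from 16.6% against 8.06% to 19.8% against 7.46%.

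Exon 7B had 92.3 reads per 100 nt in control cells and 39.1 in knockdown cells, from 144 and 61 reads. Exon 7A had 539 and 535, from 890 and 882 reads. The 7B share of this depth was 14.6% and 6.82%, so that exon 7A, the brain exon, held most of it in both libraries. The PSI of exon 7A was 99.5 in each, which is the estimate within its own trio and not its share against 7B.

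Isoform depth did not settle the share of exon 7B. Among RefSeq isoforms, NM_001122893 with exon 7A was at 188 and 202 reads per base, and NM_008054 with exon 7B was at 41.0 in control cells and listed at 0 in knockdown cells. NM_001122892, which also holds exon 7B, was listed at 0 in both. The share of 7B isoforms was thus 17.9% and 0%. With the assembled transcripts of the locus, which include one with exon 7A at 118 in control cells and one with exon 7B at 36.8 in knockdown cells, the shares were 11.8% and 12.6%, and the difference turned to 0.786 points. The direction of the isoform estimate therefore depended on which transcripts were counted.

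The remaining exons of Fyn were close to full inclusion. The 70-nt cassette exon, at chr10:39174872-39174941, had a PSI of 98.2 and 98.9. A 40-nt exon before it had 99.1 and 98.4 in its deeper trio and 94.3 and 94.4 in its other trio, the latter on 95 and 122 reads. The other constitutive exons had a PSI of 99.9 in both libraries. The exon of 258 nt at chr10:39231545-39231802 had 305 and 295 reads on the junction into it and 0 on the junction out of it in its own trio, so its PSI of 99.9 rests on 1 junction. In the trio of the next exon that junction had 13 reads in control cells and 7 in knockdown cells.

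Yes1 had 13 exons, all with at least 325 trio reads in control cells and 396 in knockdown cells. Its first exon can end at a proximal or a distal donor, the distal one adding 462 nt at chr5:32913749-32914210, before the first coding base. The bases at both donors are printed because the reads divide between them, with the 15 exonic bases in capitals. The windows are chr5:32913734-32913763 and chr5:32914196-32914225 on the plus strand.
Yes1 proximal donor: TGCGGCCGGACTCAGgtaagctcgcggcgt
Yes1 distal donor: TCGTGGAGCGAGCGGgtgagcggcgggttg

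The PSI of the added stretch was 18.0 in control cells and 12.9 in knockdown cells, a difference of -5.1 points that lay just past the threshold. Among all alternative donor events that met the read minimum, 9.08% fell by 5 points or more. Spliced reads from the distal donor to the next exon numbered 24 and 18, and those from the proximal donor 33 and 55. Reads across the border between the short exon and the added stretch numbered 4 in each library. The distal donor took 42.1% (30.2 to 55.0) and 24.7% (16.2 to 35.6) of the spliced reads, a difference of -17.4 points (-32.9 to -1.24, Fisher's exact p = 0.0394). With the mean of the spliced and border reads, the shares were 29.8% and 16.7% and the difference of -13.1 points (-29.0 to 2.37, Fisher's exact p = 0.112) did not exceed the counting error. The depth of the added stretch itself was 12.8 and 12.3 reads per 100 nt.

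Cufflinks listed 1 RefSeq isoform of Yes1, with the distal donor, at 224 and 185 reads per base. In the knockdown library it also assembled a transcript that uses the proximal donor, at 32.6 reads per base, so that the share of the distal donor was 100% and 85.0%. No such transcript was assembled in control cells, where 33 reads used the proximal donor.

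Inside the coding part, Yes1 was spliced nearly uniformly. The 273-nt exon after the first, at chr5:32942704-32942976, had 4 trios with a PSI between 93.0 and 99.8 in control cells and between 97.2 and 98.5 in knockdown cells. In the trios from the proximal donor its PSI went from 93.5 to 97.4, or from 93.0 to 97.2, with 10 skipping reads in control cells and 5 in knockdown cells. In the trios from the distal donor it went from 99.8 to 98.5 or 98.4, with 1 and 4 skipping reads. The direction thus differed between the trios of this exon. The 77-nt exon at chr5:32961408-32961484 had a PSI of 99.1 and 96.2, with 2 and 5 skipping reads.

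The 3′ end of Yes1 held a further event. A 256-nt stretch at chr5:32986924-32987179 had a PSI of 94.0 and 94.7 on 1799 and 1487 trio reads. Its upstream junction held 228 and 195 reads, its downstream junction 1 and 1, and the skipping junction 12 and 10, so its inclusion rests on 1 junction. From the mean of both, inclusion was 90.5% (84.1 to 94.5) and 90.7% (83.8 to 94.9), a difference of 0.227 points (-7.78 to 7.83, Fisher's exact p = 1.00). The 1714-nt intron annotated after it had a PSI of 99.9 in both libraries, at 259 and 215 reads per 100 nt.

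At the level of whole genes, none of the 3 kinases moved by 1 or more on the log2 scale. Among the 13572 genes with FPKM above 0 in both libraries, 11.4% were higher in knockdown cells by at least this much and 4.06% lower, with a median log2 ratio of -0.04. Src was at 12.3 reads per base in control cells and 19.5 in knockdown cells, a log2 ratio of 0.79 with bounds of -0.16 to 1.78. Fyn was at 347 and 292, a ratio of -0.14 (-0.32 to 0.03), and Yes1 at 224 and 217, a ratio of 0.09 (-0.01 to 0.20). The bounds of each included 0. In bulk RNA, a lower level per cell and fewer cells expressing a gene cannot be told apart. Junction reads gave ratios of 1.41 for Src, 0.911 for Fyn and 0.879 for Yes1, beside 0.784 for all junctions.

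The order of the family by deposited FPKM, which is scaled to length, was Fyn, Yes1, Lck, Lyn and Src in both libraries. In the control library the deposited bounds of neighbors in this order did not overlap. In the knockdown library Lyn (21.9 reads per base) and Src (19.5) had overlapping bounds, and no other neighbors did. Lck, the lymphocyte kinase, was at 173 and 159 reads per base, a log2 ratio of 0.01. Lyn, a kinase of B and myeloid cells, was at 43.2 and 21.9, a ratio of -0.88 (-1.50 to -0.25). Fgr, Blk and Frk, which are known mainly from blood cells or epithelia, were each under 1 read per base in both libraries.

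Of 26 listed family members, regulators and partners, 24 had FPKM above 0 in both libraries. Of these, 3 were higher by 1 or more on the log2 scale and 1 was lower, beside 11.4% and 4.06% of all genes, and their median log2 ratio was -0.15. The 3 were Fgr (1.52), Blk (2.41) and Dab1 (1.37), the adaptor of the reelin pathway that Fyn phosphorylates. Each had under 1 read per base in both libraries. Among the 20 listed genes above that depth in a library 0 were higher, and the share of all genes above that depth was not computed. Frk and Matk were listed at 0 in knockdown cells.

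Of the regulators and partners above that depth, only Cbl passed 1 on the log2 scale. Cbl, a ubiquitin ligase of active kinases, was at 453 and 118 reads per base, a log2 ratio of FPKM of -1.15 (-1.36 to -0.95). The ratio was -1.65 from depth scaled to the library total and -0.60 with FPKM divided by the library median before the pseudocount. It was -1.09 with FPKM divided by the median of genes above 0 in both libraries and no pseudocount. Scaling depth to the library total moved the median of all genes from -0.04 to 0.14, and Cbl the other way. Depth and FPKM of Cbl thus differed beyond this shift, and the reason was not tested. Csk, the kinase that phosphorylates the inhibitory tail tyrosine, was at 293 and 243, a ratio of -0.17 (-0.32 to -0.01). The phosphatases listed had a median of -0.08, with Ptpra, which removes the tail phosphate, at -0.95 and Ptpn11 at -0.73. The value of Ptpra sums its RefSeq isoforms only and leaves out any assembled transcripts. Among the 13 substrates and partners the median was -0.22, with cortactin (Cttn) at -0.98 and focal adhesion kinase (Ptk2) at -0.78, while paxillin (Pxn) was at 0.42.

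**Figure D4:**
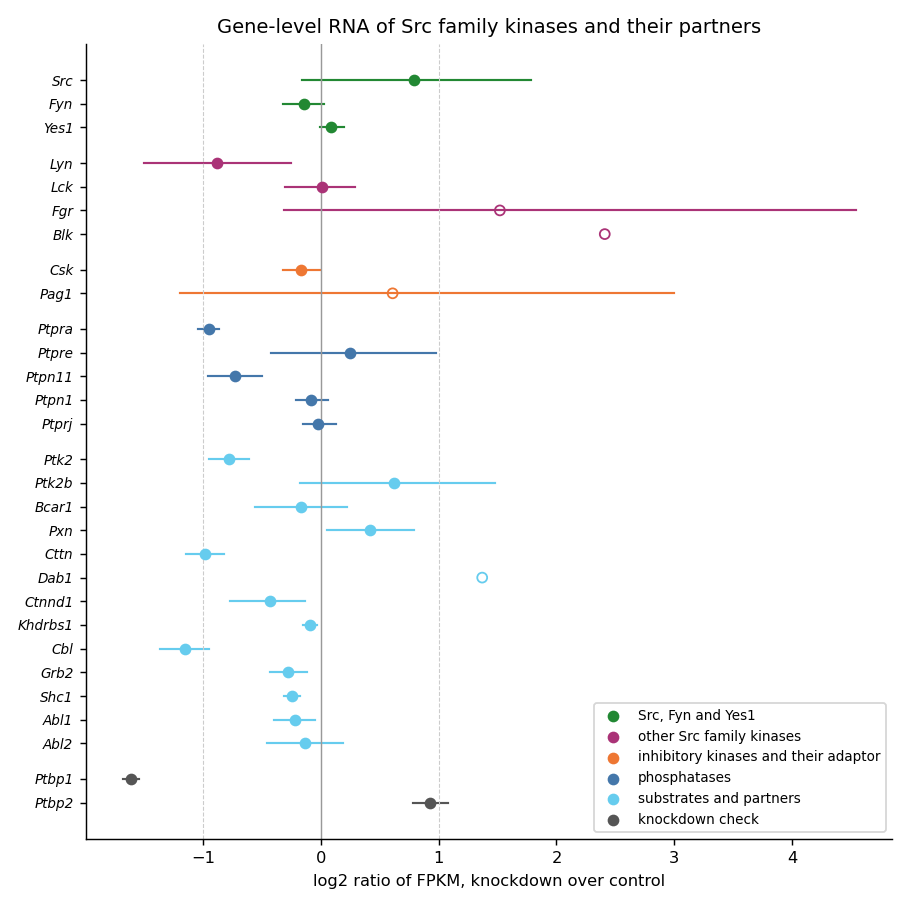
Log2 ratio of FPKM, knockdown over control (x axis), for Src, Fyn, Yes1 and the listed genes with FPKM above 0 in both libraries (y axis). Lines span the widest combination of the deposited bounds where neither lower bound is 0, open circles mark genes under 1 read per base in both libraries, and dashed lines mark 1 and -1. Src, Fyn and Yes1 lie between the dashed lines, and among the filled circles of the listed genes only Cbl lies beyond one. Ptbp1, the target of the shRNA, also does.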

How the data were processed

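RNA from 2 N2A cultures, 1 given a control shRNA and 1 an shRNA against Ptbp1, was sequenced by the authors with strand-specific paired reads of 100 bases. The authors ran SpliceTrap on mm9 trios and deposited inclusion ratios as a fraction, read counts per junction without normalization, and coverage in reads per 100 nt. From Cufflinks, named with TopHat in the processing notes, the authors deposited FPKM with bounds, depth per base and exon positions of isoforms. Tool versions are not given in the sources used here. The scale of the FPKM values is unusually high and not explained, and they were used as ratios and for the order of genes within a library. Other experiments of the study were not analysed here, and some listed genes are not reported here.

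PSI was the corrected ratio times 100, from the trio with the most reads per exon and class. Genes were placed by GENCODE on NCBIM37, which is mm9. Sequence windows were taken at the distinct middle exons of cassette and constitutive trios whose chromosome is in this assembly. Of these exons, 98.0% had AG before and GT after them. Calls needed 20 reads in each library and 5 points, the threshold of the study. Trio reads were coverage times length. Junction shares have 95% Wilson and Newcombe intervals and two-sided Fisher's exact tests on rounded means. Log2 ratios used a pseudocount of 1, and loci shared by several symbols, as for Ptpra, Shc1, Tubb3 and Matk, were summed over the gene's own RefSeq isoforms. Such sums leave out any assembled transcripts of the locus. The members and gene lists were chosen with earlier results of these data known. Trios were described singly where PSI was under 95 in a library, and pathway genes were named past 1 on the log2 scale or for their role. The intervals and tests were tested on simulated cassette exons with 20 or more junction reads in each library. The simulation did not cover counts as small as those of the Src neural exon, or shares close to full inclusion. Other settings were the ratio before correction, other junctions, minimums of 10 or 50 reads or none, 10 points, other scalings and assembled transcripts. The software was SciPy 1.17.1 and NumPy 2.4.6 with pandas 2.3.3, matplotlib 3.10.9 and pysam 0.24.0 under Python 3.11.15.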

Additional observations from a re-analysis of the deposited data

Results flagged for a closer look

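In the knockdown library Cufflinks assembled 2 transcripts of Src whose first exon begins inside the intron before the neural exon and runs through it to the neural exon's end. The first begins 68 nt before the exon and was at 4.49 reads per base. The other begins 57 nt before it and was at 1.68 reads per base. They stand out because the control library, assembled separately, had no transcript of this form, and because the RefSeq isoforms do not have this start. Both starts lie inside the upstream window printed for Src. They do not splice into the neural exon, and without them its share among transcripts that reach it was 58.1% in the knockdown library. The depths given are estimates over each whole transcript and not at its start. The neural exon held 4 reads in the knockdown library. The start of these transcripts was not tested.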

How the results depend on the processing

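No paired analysis was possible because each condition had 1 library, and no replicate could be left out. Of 66 alternative values, 55 lay within the width allowed (the counting interval or deposited bounds of the reported value, 5 points for isoform shares, 1.5 times for counts, or the same side of 0.05 for tests), 9 moved, 1 turned and 1 passed 0.05. That width is broad: it holds -4.7 points for Fyn exon 7B by its own junctions (reported -15.2, and under the threshold of 5), -4.03 for the Yes1 smaller junction count (-13.1), and 0.11 for Src FPKM divided by the library median (0.79). The Src isoform share difference was 58.1 points with RefSeq isoforms only and 58.0 with all assembled transcripts. Leaving out the assembled transcripts that begin in the intron, a setting added after the data were seen, gave 35.2 instead of 58.0. With assembled transcripts, the Fyn exon 7B share turned from -17.9 to 0.786 points and the share of the Yes1 distal donor from 0 to -15.0. The Yes1 junction difference was -17.4 points with the larger junction count (main -13.1), past 0.05 there. With no read minimum, 2 exons rose instead of 0, both in Src, and with a threshold of 10 points 1 exon fell instead of 2. With coverage scaled to the library total, which moved the median of all genes to 0.14 on the log2 scale, Fyn was at 0.05 and Yes1 at 0.25. Dividing FPKM by the library median before the pseudocount left 0 listed genes higher and 0 lower, instead of 3 and 1, and put Cbl at -0.60, beside -1.65 with coverage scaled to the library total. Requiring 1 read per base in a library, added after the data were seen, also left 0 higher. FPKM was also divided by the median of genes above 0 in both libraries, without a pseudocount. This setting, also added after the data were seen, gave 3 listed genes higher and 1 lower. Cbl was then at -1.09 and Src at 0.85. Depth limits Src: the trio of its neural exon held 4 and 5 reads, so a change of that exon was not detectable.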
